A study of Sus scrofa with 12 samples.

Results

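Skeletal muscle of newborn pigs taken within 24 hours of birth (day 0) was compared with muscle taken 21 days after birth (day 21). The comparison uses 6 arrays of the 12 in the series, 3 titled d0 and 3 titled d21, each labelled as a separate biological replicate. The study also sampled days 7 and 14, with 3 arrays each, to follow gene expression in muscle over the first weeks of life, and those arrays enter here in the estimate of the spread and as levels given without a test. The breed, the sex and the muscle sampled are not given in the sources used here. Age is thus the only labelled difference between the groups, which share their handling: tissue was frozen in liquid nitrogen and total RNA was labelled with biotin.

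Pig muscle grows fast after birth, when the newborn leaves a placental supply of nutrients for milk, starts to move and to keep itself warm, and its fibres take on their adult types. Protein synthesis is high in newborn muscle and rests on ribosomes, which are assembled in the nucleolus, on transfer RNAs that are loaded with amino acids by aminoacyl-tRNA synthetases, and on chaperones that fold the new chains. Fast fibres draw quick energy from glycogen and glucose and keep their ATP level with creatine kinase and the purine nucleotide cycle, in which AMP is turned into IMP and back.

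The arrays were Affymetrix porcine arrays, on which a probe set is a group of short probes for 1 transcript, and the deposited MAS5 signal is the brightness of a probe set after scaling each array to the same trimmed mean of 500.1. A change is the difference between the mean log2 signals of both ages, day 21 minus day 0, given ± SE with n = 3 arrays per age, and a gene rose or fell where limma's Benjamini-Hochberg adjusted p over all 14399 probe sets tested was at most 0.05. Among the probe sets 1657 passed (11.5%), 952 higher (6.61%) and 705 lower (4.9%). Of 5296 genes with a measured symbol, 766 passed (14.5%). These were 390 that rose (7.36%) and 376 that fell (7.1%), while the median change of all genes was -0.02. Genes called numbered 419 without day 21 replicate 1, 384 without day 21 replicate 3 and 542 to 934 without any other array. With only the 6 arrays compared, whose spread rests on fewer samples, 279 genes were called (160 higher, 119 lower). The number of arrays limits the precision: in simulated data of this size 35 of 100 changes of 2-fold were recovered and 90 of 100 of 4-fold.

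The day 0 arrays also differed from the day 21 arrays in measures that are not muscle genes. The hybridization controls, added in equal amount, had a mean log2 signal of 12.09 to 12.26 at day 0 and 12.46 to 12.79 at day 21, and the probe sets of 28S ribosomal RNA lay at 11.04 to 11.89 against 12.08 to 12.38. Those of 18S ribosomal RNA overlapped between the ages, at 9.78 to 11.03 against 10.79 to 11.27. Ribosomal RNA comes from the tissue itself, unlike the added controls. The log2 ratio of 3' to 5' signals of the poly-A spike RNAs was 1.59 in day 0 replicate 2 and 0.54 to 0.69 in the other 5 arrays. With arrays scaled on the hybridization controls the median change of all genes became -0.40, and 174 genes rose and 1244 fell. With each array centred on its median it was -0.12, and 299 rose and 538 fell. Changes are therefore given relative to an equal trimmed mean. No gene among the 766 changed sign on that scale, with median centring or with quantile normalization, although many rises lost their call on the hybridization control scale. Day 0 replicate 3 was the day 0 array nearest to the day 21 mean in 213 of the 390 genes that rose (54.6%) and 220 of the 376 that fell (58.5%). Its correlation with the day 21 arrays was 0.901 to 0.926, while the day 0 arrays of replicates 1 and 2 had 0.866 to 0.893. In whole tissue, fewer cells of a type and less RNA per cell cannot be told apart.

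The tissue label was set against its markers. Of 12 skeletal muscle fibre markers 10 had a probe set with their symbol, all 10 were tested, and their summed signal was 233776 to 348733 at day 0 and 390858 to 502189 at day 21. The cardiac markers NPPA, NPPB and TNNI3 were too dim to be tested, and summed signals of all 4 cardiac markers with a probe set stayed at or below 918.5.

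Most changes were smaller than those of the first ranks. Among the rises 165 genes changed by less than 1 on the log2 scale, 179 by 1 to 2, 38 by 2 to 3 and 8 by 3 or more, with a median of 1.09. Falls were smaller, with 232 under 1, 135 between 1 and 2, 9 between 2 and 3, none above and a median of -0.91. The 3 day 21 values lay wholly outside the 3 day 0 values in 387 of the 390 rises and in all 376 falls. Over all genes 32.2% had such separate groups, 15.2% higher and 17% lower at day 21 (29.1% of all probe sets). A call rests on the same values, so separate ages in called genes are largely built in and add no support. The 41 functional lists held 1288 of the measured genes, of which 124 rose and 164 fell, and of the other 4008 genes 266 rose and 212 fell. Over all genes tested 7.36% rose and 7.1% fell. The lists and their members were chosen with earlier results of these data known, so a larger share of calls inside them is partly built in.

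**Figure D1:**
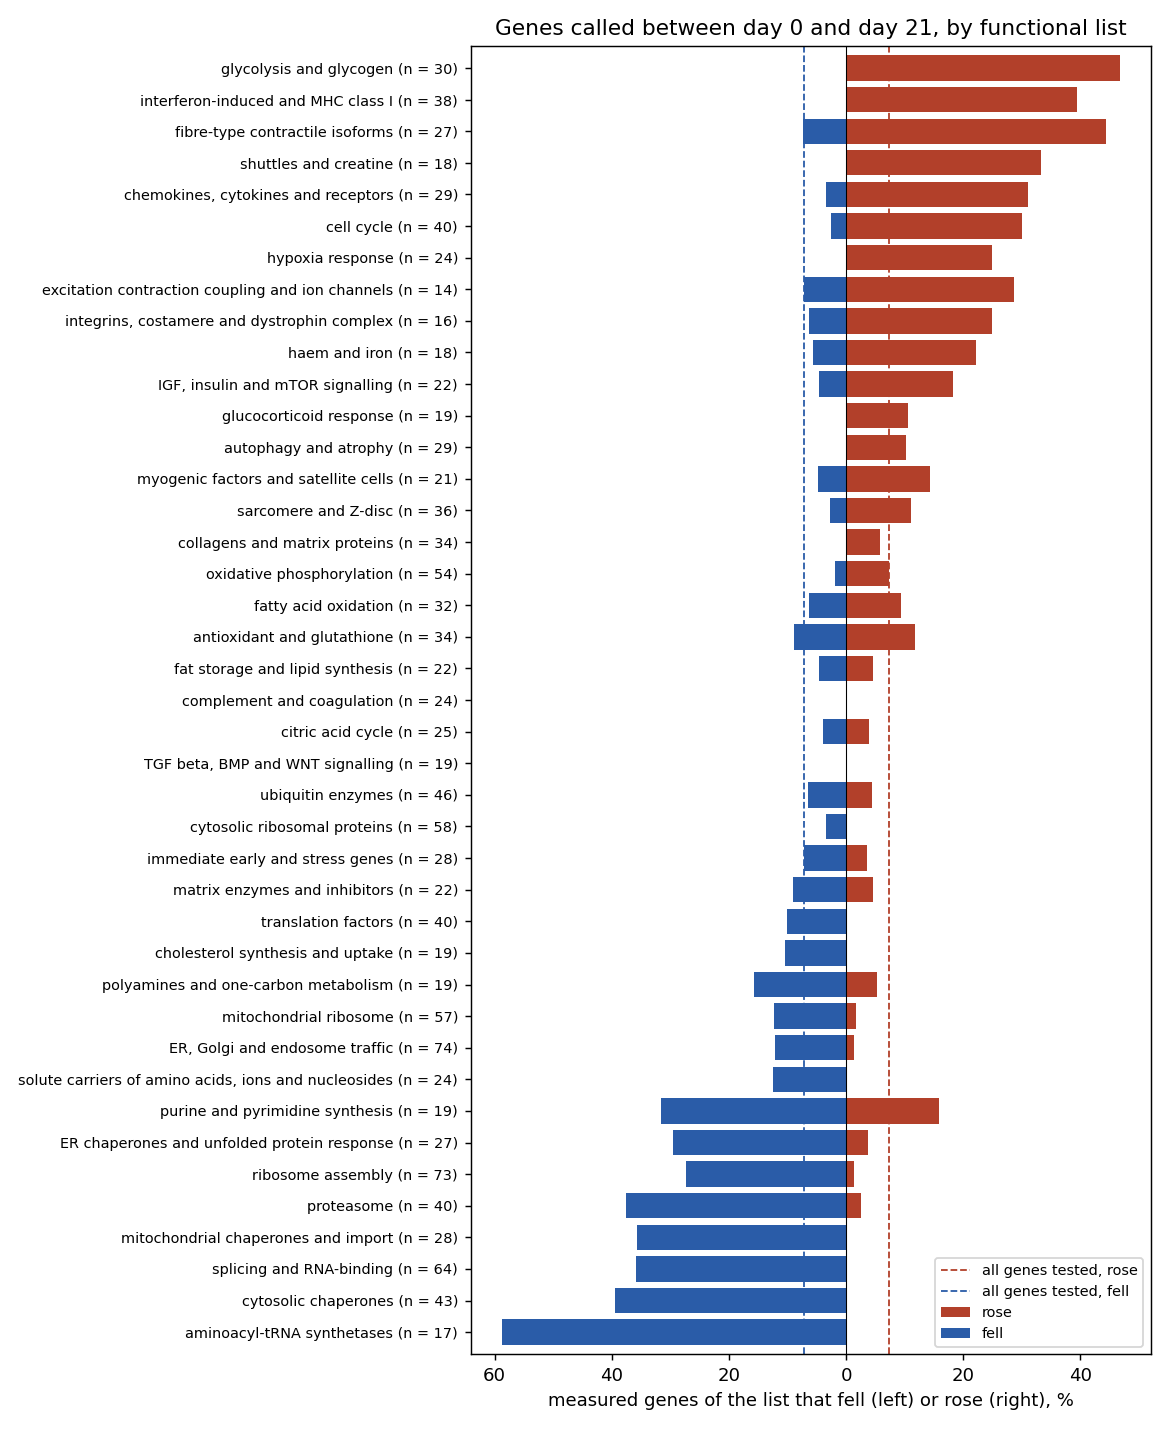
Share of measured genes that rose (red, to the right) or fell (blue, to the left) between day 0 and day 21 in each of the 41 functional lists, in percent, with n the measured genes and dashed lines at the share over all genes tested (7.36% rose, 7.1% fell). Glycolysis and glycogen stands at the top with 14 of 30 genes risen and aminoacyl-tRNA synthetases at the bottom with 10 of 17 fallen.

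Genes that build and load the protein synthesis machinery were among the falls. Of 73 measured genes of ribosome assembly, which cut, modify and fold ribosomal RNA and join it to ribosomal proteins, 20 fell and 1 rose, with a median of -0.58. In NOP16, a nucleolar protein of the large subunit's assembly, the signals were 2117, 1454 and 1404 at day 0 and 722, 609 and 710.5 at day 21. The ages did not overlap, and it fell by 1.26 ± 0.19 (limma adjusted p = 0.00167). GPATCH4, a nucleolar G-patch protein, had signals of 1278, 475 and 659 at day 0 and 188, 209.5 and 197 at day 21, with day 0 replicate 1 the highest. It fell by 1.90 ± 0.32 (adjusted p = 0.0034), and both of its probe sets were called. MRTO4, a factor that prepares the stalk of the large subunit, fell by 1.70 ± 0.33, LTV1, which acts in maturation of the small subunit, by 1.30 ± 0.23, and UTP11, of the small subunit processome, by 1.18 ± 0.21. The signals of MRTO4 were 1094, 646 and 487 at day 0 and 226, 162 and 274 at day 21. NPM3, a nucleolar chaperone of the nucleoplasmin family, fell by 1.83 ± 0.44 with signals of 1866, 607 and 557 at day 0 and 321, 186 and 233 at day 21, and day 0 replicate 1 stood more than 3-fold above the other day 0 arrays. Its close relative NPM1 was at -0.51 ± 0.16 and did not pass (adjusted p = 0.0514). Core proteins of the particles that methylate ribosomal RNA were split, with NOP58 falling by 1.08 ± 0.21 and its partner NOP56 at -0.57 ± 0.26, which did not pass (adjusted p = 0.173). POLR1D, a subunit shared by RNA polymerases I and III, was the 1 gene of the list that rose (0.61 ± 0.18, adjusted p = 0.0415). The count of falls was 11 without day 21 replicate 1 and 13 without day 0 replicate 1. The call on NPM3 was lost without day 21 replicate 2 (limma adjusted p = 0.0564) or 3 (0.0581), and no call was made on POLR1D in any fit that left out 1 array except that without day 0 replicate 1.

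For the proteins of the finished ribosome the count of calls differed with the scaling. Of 58 measured cytosolic ribosomal proteins 2 fell and 0 rose (10 and 0 at an unadjusted p under 0.05 in limma), with a median of -0.08. RPL3, a protein of the large subunit, had signals of 13771, 16995 and 11649 at day 0 and 5373, 7114 and 5183 at day 21 and fell by 1.26 ± 0.18 (limma adjusted p = 0.00161), with no overlap between the ages. RPL13 fell by 0.41 ± 0.12, a call lost in 5 of the 6 fits that left out 1 array (highest adjusted p = 0.136, without day 0 replicate 2) and kept without day 0 replicate 1, where 8 of these proteins fell. With quantile normalization 19 of the 58 fell, with a median of -0.26, and with median centring 7 fell. On the hybridization control scale 47 fell, with a median of -0.46 against -0.40 for all genes. Among 57 mitochondrial ribosomal proteins 7 fell (12.3%) and 1 rose (1.75%), against 7.1% and 7.36% of all genes, with a median of -0.28. MRPS7, of the small mitochondrial subunit, fell by 1.18 ± 0.21, and its signals of 493, 570.5 and 689.9 at day 0 and 268, 208 and 301 at day 21 did not overlap. MRPS25 rose by 0.85 ± 0.22, and that call was lost without day 0 replicate 1 (0.0776), day 0 replicate 2 (0.0865), day 21 replicate 1 (0.0830) or day 21 replicate 3 (0.104). The list had 7 falls without day 0 replicate 3 and 1 to 4 without any other array, the lowest without day 21 replicate 3. Among 40 translation factors 4 fell (10%) and 0 rose (5 higher at an unadjusted p under 0.05 in limma), near the 7.1% and 7.36% of all genes. EIF4E2, a relative of the cap-binding protein, fell by 1.01 ± 0.21, and its call was lost with the mean of its 2 probe sets. The factors that fell numbered 1 without day 21 replicate 1 or 3, 2 when replicate 1 or 2 of day 0 was omitted, and 9 without day 0 replicate 3. With only the 6 arrays compared 0 fell.

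Aminoacyl-tRNA synthetases, which join each amino acid to its transfer RNA, had the largest share of falls among the 41 functional lists. Of 17 measured genes 10 fell and 0 rose (also 0 at an unadjusted p under 0.05 in limma), with a median of -0.84. EPRS, which loads glutamate and proline, had signals of 4875, 5881 and 3311 at day 0 and 2155, 2054 and 2167 at day 21 and fell by 1.10 ± 0.19 (limma adjusted p = 0.00363). FARSA, a subunit of the phenylalanine enzyme, fell by 1.03 ± 0.18, VARS, for valine, by 1.35 ± 0.26, and NARS, for asparagine, by 1.16 ± 0.24. VARS ran at 1228, 2016 and 903 at day 0 and 574, 518 and 452 at day 21. In each of these 4 genes the lowest day 0 array was replicate 3, and it was still above every day 21 array. The second phenylalanine subunit FARSB fell too, by 0.94 ± 0.20. Without day 21 replicate 3 the list had 5 falls and without day 0 replicate 3 it had 13.

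**Figure D2:**
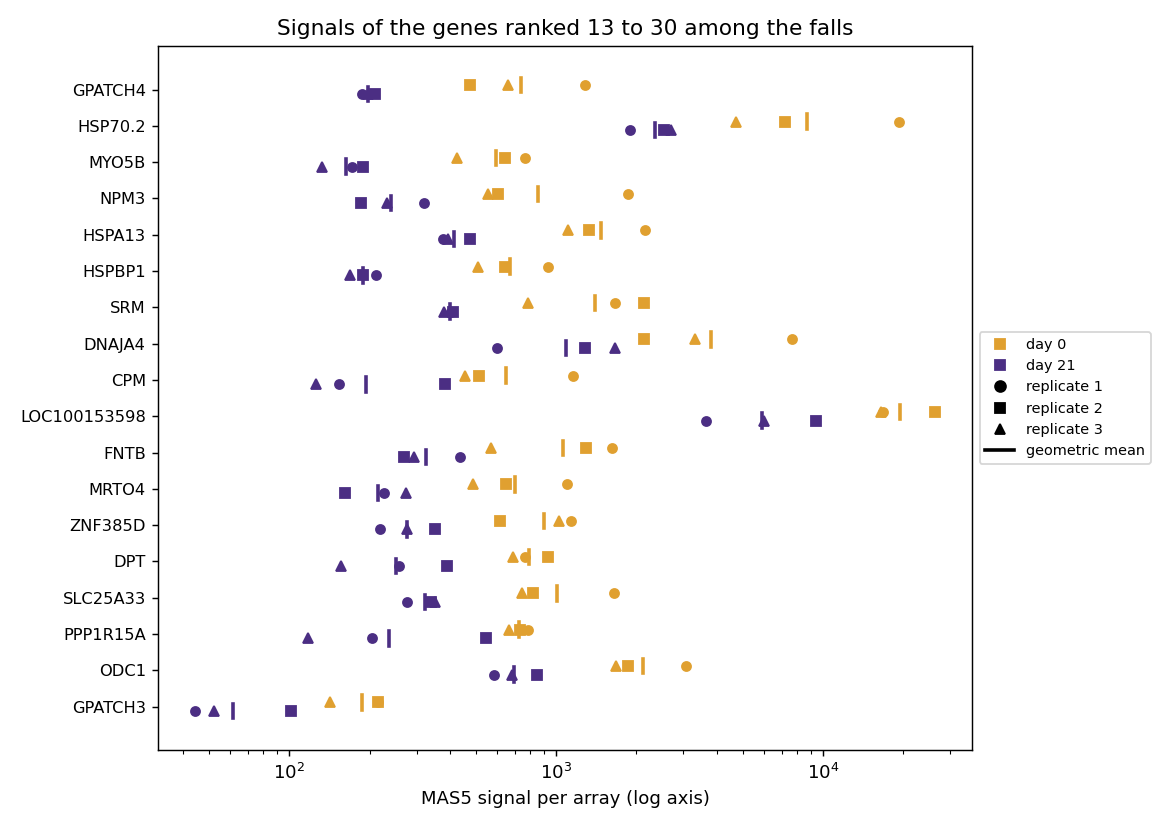
MAS5 signal of each array (log axis) for the genes ranked 13 to 30 among the falls, with day 0 in orange and day 21 in purple, marker shapes for replicates and vertical bars for geometric means of 3 arrays. The day 21 signals of HSPBP1 (169 to 211) and HSPA13 (378 to 474) lie close together, whereas day 0 replicate 1 stands above the other day 0 arrays in HSP70.2 (19349) and NPM3 (1867).

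Chaperone genes fell in the lists of all 3 compartments. In the cytosol 17 of 43 measured genes fell and 0 rose (1 higher at an unadjusted p under 0.05 in limma), with a median of -0.53. The genes ranked 13 to 30 among the falls held several relatives and partners of the main heat shock protein family, HSP70, which holds unfolded chains: HSP70.2, an inducible form whose probe sets may also read its near-identical copies, HSPBP1, which makes such proteins release their nucleotide, HSPA13, a relative bound to microsomes, and DNAJA4, a co-chaperone. HSP70.2 had signals of 19349, 7226 and 4716 at day 0 and 1894, 2544 and 2692 at day 21, and it fell by 1.89 ± 0.39 (limma adjusted p = 0.00873). HSPBP1 lay at 929, 644 and 510.3 at day 0 and 211, 189.5 and 169 at day 21, a fall of 1.83 ± 0.25 (adjusted p = 0.00129). The day 0 arrays of HSP70.2 spread over more than a 4-fold range and those of HSPBP1 over less than a 2-fold one. Separate ages were a condition for a rank, so the lack of overlap in ranked genes adds no support. HSPA13 fell by 1.83 ± 0.29 and DNAJA4 by 1.80 ± 0.44, but the call on DNAJA4 was lost without day 0 replicate 1 (limma adjusted p = 0.0595) or day 21 replicate 1 (0.0831). HSPA8, the constitutive form, was at -0.38 ± 0.22 and did not pass (adjusted p = 0.291). The ring-shaped chaperonin that folds actin and tubulin is built of TCP1 and the CCT subunits. TCP1 had signals of 8398, 7255 and 5169 at day 0 and 3089.6, 2959.7 and 3171 at day 21 and fell by 1.15 ± 0.18 (adjusted p = 0.00237). CCT2, CCT6A, CCT7 and CCT8 fell by 0.76 ± 0.14, 0.89 ± 0.20, 0.92 ± 0.19 and 1.12 ± 0.23, while CCT4, at -0.53 ± 0.20, did not pass (adjusted p = 0.105). The calls on CCT2, CCT6A, CCT7 and CCT8 were lost with only the 6 arrays compared. That on CCT6A was also lost with the mean of its probe sets. Without day 21 replicate 3 the list had 11 falls, and with only the 6 arrays compared it had 4.

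In mitochondria, HSPD1 and HSPE1 form the folding chamber and HSPA9 pulls imported chains through the membrane. Of 28 measured mitochondrial chaperone and import genes 10 fell and 0 rose (1 higher at an unadjusted p under 0.05 in limma), with a median of -0.50. HSPD1 was among the bright genes, with signals of 16945, 14129 and 11642 at day 0 and 6419, 6022 and 6949 at day 21, and fell by 1.13 ± 0.16 (limma adjusted p = 0.00144). HSPA9 fell by 0.95 ± 0.13 and HSPE1 fell by 0.61 ± 0.13. Import into the inner membrane was represented by TIMM22, which fell by 1.27 ± 0.17 from signals of 569.6, 582 and 561 at day 0 and 220.4, 238 and 251 at day 21, and by TIMM8A, which fell by 1.27 ± 0.23. The day 0 arrays of TIMM22 were close to each other and lay more than 2-fold above every day 21 array. Without day 21 replicate 2 the list had 6 falls.

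In the endoplasmic reticulum, where secreted and membrane proteins fold, 8 of 27 measured genes fell and 1 rose, with a median of -0.62. MANF, a secreted protein made under folding stress, fell by 1.32 ± 0.19 (limma adjusted p = 0.00139) from signals of 2951, 2327 and 2287 at day 0 and 943, 1113 and 959 at day 21. HYOU1, a chaperone of the HSP70 family, fell by 1.22 ± 0.21, and HSP90B1 by 1.14 ± 0.25. HSPA5, the main HSP70 of this compartment, was at -1.37 ± 0.63, and its ages overlapped (adjusted p = 0.179). ATF4, a transcription factor of the stress response that is controlled mainly at translation, was the 1 gene that rose, by 1.50 ± 0.29, with signals of 10103, 3933 and 4218 at day 0 and 15278, 14746 and 16974 at day 21. Of 2 tested probe sets of ATF4 1 was called, and with the mean of both the call was lost. PPP1R15A, which restarts translation after stress, fell by 1.62 ± 0.46 (adjusted p = 0.0362). Its signal in day 21 replicate 2 was 547, while the remaining day 21 arrays had 205 and 117, and the call was lost in all fits without 1 array except that without day 21 replicate 2 (highest adjusted p = 0.143, without day 21 replicate 3). The number of ER genes that fell was 3 without day 21 replicate 1, 4 without day 0 replicate 2 or day 21 replicate 3, and 5 without day 0 replicate 1.

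The proteasome, which degrades tagged proteins, had 15 falls and 1 rise among 40 measured genes, with a median of -0.59. PSMD3, a subunit of the regulatory cap, had signals of 3782, 3189 and 2062 at day 0 and 1548, 1316 and 1377 at day 21 and fell by 1.05 ± 0.20 (limma adjusted p = 0.00598). PSMB8, the interferon-induced catalytic subunit that replaces PSMB5 in the immunoproteasome, was the 1 that rose, by 1.52 ± 0.39, from 151, 324 and 259 at day 0 and 929.6, 439 and 737 at day 21. Its call was lost without day 0 replicate 1 (limma adjusted p = 0.0755), day 21 replicate 1 (0.0954) or day 21 replicate 3 (0.0783). Without day 21 replicate 1 there were 9 falls, and without day 0 replicate 3 there were 23. Ubiquitin enzymes showed no such share, with 3 falls and 2 rises among 46 genes, where USP10, a deubiquitinase, fell by 0.73 ± 0.14. The list had 4 rises without day 0 replicate 3, 1 without day 0 replicate 2 or any 1 day 21 array, and 1 fall without day 21 replicate 2 or 3. Among 29 genes of autophagy and atrophy 3 rose (10.3%) and 0 fell (2 lower at an unadjusted p under 0.05 in limma), against 7.36% and 7.1% of all genes. CAPN3, the muscle calpain bound to titin, rose by 1.30 ± 0.22 (adjusted p = 0.00342) from 1312, 1059.8 and 1686 at day 0 and 2809, 3383 and 3656 at day 21, and GABARAPL2, of the autophagosome membrane, by 0.76 ± 0.16. The call on CAPN3 was lost with the mean of its 2 probe sets.

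Genes of RNA splicing and RNA binding fell in number, by small steps. Of 64 measured genes 23 fell and 0 rose (also 0 at an unadjusted p under 0.05 in limma), with a median of -0.50. RBM3, an RNA-binding protein induced by mild cold, fell by 1.48 ± 0.21 (limma adjusted p = 0.00143), and its signals of 6699, 6101 and 7818 at day 0 and 2478, 2898 and 2052 at day 21 were well apart. CIRBP, the other cold-induced RNA-binding protein of this family, was at 0.09 ± 0.22 and did not pass (adjusted p = 0.841). SNRPD1, a core protein of the spliceosomal particles, fell by 1.28 ± 0.23. The splicing regulators TRA2B and SRSF7 fell by 0.96 ± 0.16 and 0.84 ± 0.16, but the call on TRA2B was lost with the mean of its probe sets. SNRPD1 ran at 5582, 3299 and 3210.3 at day 0 and 1605, 1566 and 1627 at day 21, with day 0 replicate 1 the highest array and the day 21 arrays close together. The list's count of falls was 8 without day 21 replicate 1, 11 without day 0 replicate 1 or day 21 replicate 3, and 13 without day 21 replicate 2.

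**Figure D3:**
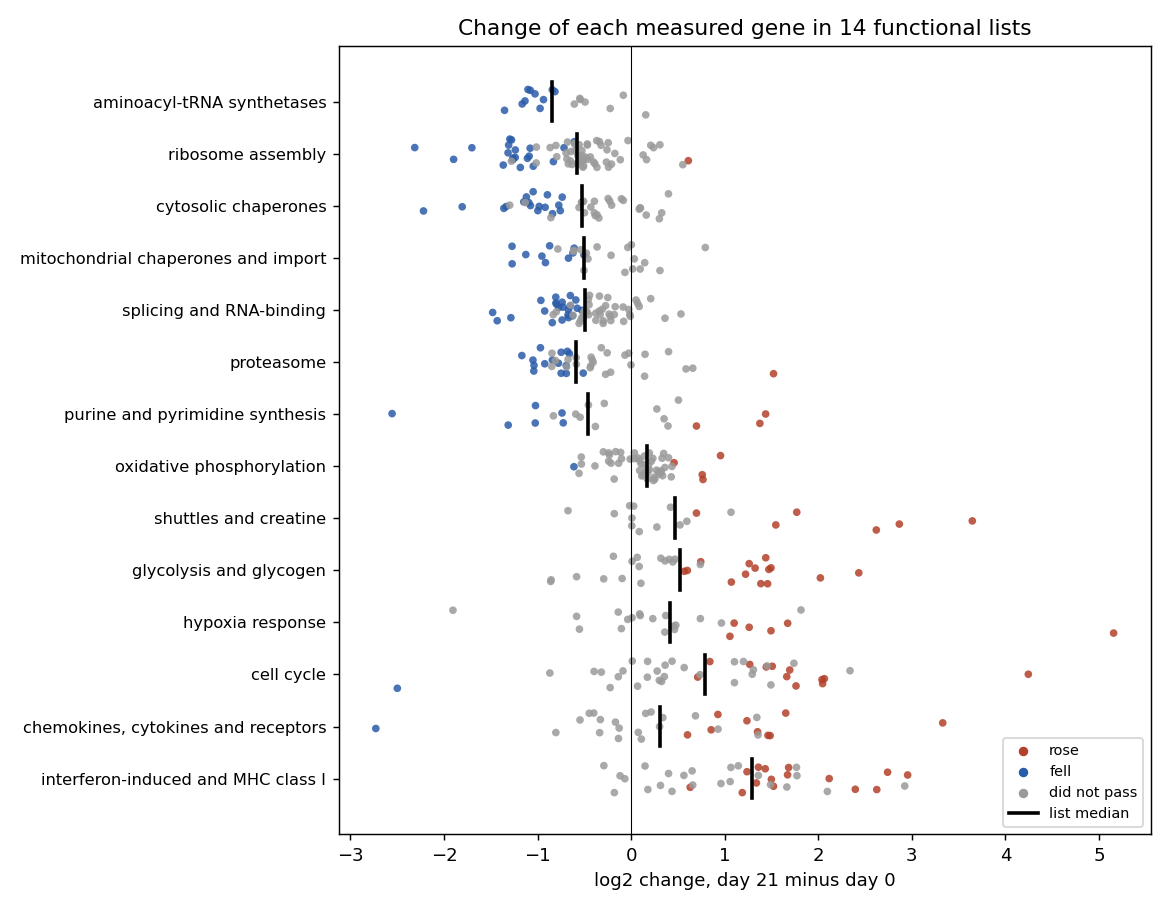
Log2 change (day 21 minus day 0) of each measured gene in a selection of functional lists, 1 point per gene, red where it rose, blue where it fell, grey where it did not pass, with black bars at list medians. Splicing genes lie in a narrow band left of 0 around a median of -0.50, and interferon-induced genes spread to the right around 1.29.

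Polyamines are small charged molecules that cells make for growth, and their synthesis starts with ornithine decarboxylase. ODC1, that enzyme, had signals of 3061, 1863 and 1676 at day 0 and 584, 847 and 685 at day 21 and fell by 1.61 ± 0.24 (limma adjusted p = 0.00167). SRM, the next synthase, which makes spermidine, fell by 1.82 ± 0.29 (adjusted p = 0.00276) from 1659, 2126 and 784 at day 0 and 404, 412 and 381 at day 21. SMS, which makes spermine, was at -0.84 ± 0.30, and day 0 replicate 3 lay among the day 21 arrays (adjusted p = 0.0872). OAZ1, the antizyme that binds ornithine decarboxylase and sends it to the proteasome, rose 1.99-fold (adjusted p = 0.00383), with signals of 20605, 16784 and 26105 at day 0 and 43670.5, 33321 and 49233 at day 21. ODC1, SRM and OAZ1 kept their calls in every alternative run. The list of polyamine and one-carbon genes had 3 falls (15.8%) and 1 rise (5.26%) among 19, against 7.1% and 7.36% of all genes.

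Nucleotide genes were called in both directions. Of 19 measured genes of purine and pyrimidine synthesis 6 fell and 3 rose, with a median of -0.46. CTPS1, which makes CTP, fell by 1.31 ± 0.30 and GMPR2, a GMP reductase, by 1.02 ± 0.21. IMPDH2, the first step towards GMP, was at 4664, 4589.8 and 3128 at day 0 and 2436, 2420.5 and 2446 at day 21 and fell by 0.74 ± 0.17 (limma adjusted p = 0.0162). The second GMP reductase, GMPR, rose by 1.44 ± 0.38, from 584, 979 and 2129 at day 0 and 2892, 2745 and 3051 at day 21. NT5C3A, a nucleotidase of pyrimidines, rose by 1.38 ± 0.28, and SLC25A33, which carries pyrimidine nucleotides into mitochondria, fell by 1.64 ± 0.32 (adjusted p = 0.00675). Calls were lost for GMPR in every fit without 1 array except that without day 0 replicate 3 (highest adjusted p = 0.0877, without day 0 replicate 1). GMPR and GMPR2 also lost their calls with the mean of each gene's probe sets. IMPDH2 lost its call without day 0 replicate 2 (0.0532), day 21 replicate 1 (0.0506) or day 21 replicate 3 (0.0530), and CTPS1 without day 21 replicate 3 (0.0559), where the list had 2 falls. The rises numbered 1 when any 1 of replicates 1 and 2 of day 0 or 2 and 3 of day 21 was left out.

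The 3 enzymes of the purine nucleotide cycle in muscle rose. ADSSL1, the muscle adenylosuccinate synthase, had signals of 2376, 1547 and 5718 at day 0 and 18058, 12873 and 21010.1 at day 21 and rose by 2.62 ± 0.37 (limma adjusted p = 0.00139). Day 0 replicate 3 was the highest of its age and still more than 2-fold below the lowest day 21 array. AMPD1, the muscle AMP deaminase, rose by 1.55 ± 0.18 (adjusted p = 0.000584) from 6765, 9569.7 and 9155 at day 0 and 25277, 21750.0 and 26846 at day 21. ADSL, which closes the cycle, rose by 0.70 ± 0.19 from 1732, 2355 and 2889 at day 0 and 3281, 3804 and 4033 at day 21, a call lost without day 0 replicate 1 (limma adjusted p = 0.0738), day 0 replicate 2 (0.0554), day 21 replicate 2 (0.0709) or day 21 replicate 3 (0.104), and on the hybridization control scale. These genes sit in the list of shuttles and creatine, in which 6 of 18 rose and 0 fell (1 lower at an unadjusted p under 0.05 in limma), with a median of 0.47, or 0.09 on the hybridization control scale. GPD2, the mitochondrial enzyme of the glycerol phosphate shuttle, rose by 1.77 ± 0.28 with signals of 142, 75.7 and 112 at day 0 and 388, 461 and 268 at day 21.

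**Figure D4:**
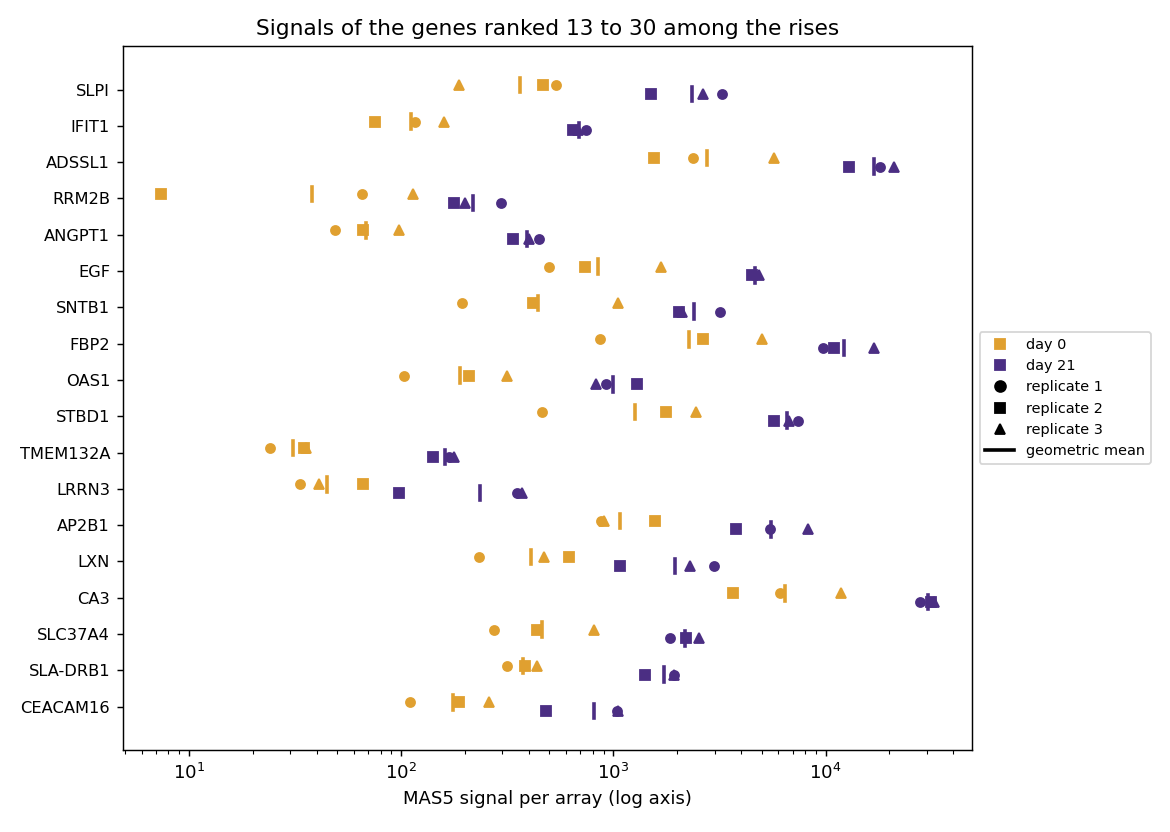
MAS5 signal of each array (log axis) for the genes ranked 13 to 30 among the rises, with day 0 in orange and day 21 in purple, marker shapes for replicates and vertical bars for geometric means of 3 arrays. ADSSL1, FBP2, STBD1 and CA3 are bright at both ages, the lowest of their day 21 arrays being 5719 in STBD1, while TMEM132A lies at 24.0 to 35.6 in the day 0 arrays.

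Handling of glycogen and glucose held the largest share of rises among the 41 functional lists. Of 30 measured genes 14 rose and 0 fell (2 lower at an unadjusted p under 0.05 in limma), with a median of 0.52, or 0.14 on the hybridization control scale. FBP2, the muscle fructose bisphosphatase, which turns glycolytic sugar phosphate back towards glycogen, had signals of 864, 2652 and 5044 at day 0 and 9762, 11022 and 16910.5 at day 21 and rose by 2.43 ± 0.49 (limma adjusted p = 0.00816). STBD1, which binds glycogen and tethers it to membranes, rose by 2.39 ± 0.43 (adjusted p = 0.00444) from 462, 1767 and 2453 at day 0 and 7451, 5719 and 6737 at day 21, and both of its probe sets were called. SLC37A4, the carrier of glucose phosphate into the endoplasmic reticulum, rose by 2.24 ± 0.38 (adjusted p = 0.00342) from 272, 438 and 812 at day 0 and 1849.8, 2188 and 2532 at day 21. In all 3 genes replicate 1 was the lowest and replicate 3 the highest day 0 array, and the day 0 arrays spread more widely than the day 21 arrays. PYGM, the muscle phosphorylase that releases glucose units from glycogen, rose by 1.44 ± 0.24, and all 4 of its tested probe sets were called. GYS1, the muscle glycogen synthase, was at -0.86 ± 0.33 and did not pass (adjusted p = 0.114). The subunits of lactate dehydrogenase differed: LDHA, the muscle form, rose by 1.49 ± 0.27 from 14088, 13878 and 33655 at day 0 and 47006, 50352 and 62224 at day 21, and LDHB, the heart form, was at 0.01 ± 0.21 with overlapping ages (adjusted p = 0.981). Counts of rises were 10 to 15 over the fits without 1 array.

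Shares of calls among mitochondrial fuel genes lay near or below those of all genes, of which 7.36% rose and 7.1% fell. Fatty acid oxidation had 9.38% risen and 6.25% fallen, the citric acid cycle 4% and 4%, and oxidative phosphorylation 7.41% and 1.85%. UCP3, the uncoupling protein of muscle, rose by 1.73 ± 0.25 (limma adjusted p = 0.00159) from 309, 356 and 251 at day 0 and 1295, 622 and 1256 at day 21, and 1 of its 2 probe sets was called. CRAT, which buffers acetyl groups as carnitine esters, rose by 0.89 ± 0.20, a call lost without day 21 replicate 3 (limma adjusted p = 0.0586). Of 32 fatty acid oxidation genes 3 rose and 2 fell, with a median of -0.07, and 6 rose without day 0 replicate 3, where the median was 0.07. PC, pyruvate carboxylase, which refills the citric acid cycle, rose by 1.67 ± 0.34 (adjusted p = 0.00816) from 139, 63.6 and 175 at day 0 and 419, 335 and 352 at day 21, and IDH3B, a subunit of isocitrate dehydrogenase, fell by 0.94 ± 0.19. These were the 2 calls among 25 citric acid cycle genes, of which 5 rose without day 0 replicate 3. Of 54 genes of oxidative phosphorylation 4 rose and 1 fell, with a median of 0.17 that turned to -0.21 on the hybridization control scale. COX7A1, the muscle and heart form of a cytochrome oxidase subunit, rose by 0.96 ± 0.18 (adjusted p = 0.00568) from 11807, 9694 and 16001 at day 0 and 23449.9, 22512 and 25286 at day 21. Its counterpart of other tissues, COX7A2, was at -0.56 ± 0.21 and did not pass (adjusted p = 0.0998). Without day 0 replicate 3, 15 oxidative phosphorylation genes rose. The count was 2 without day 0 replicate 2 or day 21 replicate 1, and 1 without day 21 replicate 3.

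Among 34 antioxidant genes 4 rose (11.8%) and 3 fell (8.82%), near the 7.36% and 7.1% of all genes. SELENOW, a small selenoprotein abundant in muscle, had signals of 1128, 1359.6 and 2137 at day 0 and 6803, 4457 and 4833 at day 21 and rose by 1.83 ± 0.26 (limma adjusted p = 0.00145). NQO1, a quinone reductase, rose by 1.96 ± 0.36 (adjusted p = 0.00496) from 636, 749 and 693 at day 0 and 3670.4, 2883 and 1828 at day 21. Among the peroxiredoxins, which reduce hydrogen peroxide, PRDX1 fell by 1.28 ± 0.24, from 3644, 6229.9 and 3412 at day 0 and 1867, 1894 and 1521 at day 21, and PRDX2 rose by 0.88 ± 0.20, from 3675, 4038 and 7003 at day 0 and 8606, 8769.8 and 8560.4 at day 21. The call on PRDX2 was lost without day 0 replicate 2 (limma adjusted p = 0.0555) or day 21 replicate 3 (0.0509) and on the hybridization control scale. Rises in the list numbered 2 without day 0 replicate 2, and falls were 1 without day 0 replicate 2 or day 21 replicate 2 or 3 and 5 without day 0 replicate 3.

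Contractile isoforms gave 12 rises and 2 falls among 27, with a median of 0.52 that was 0.14 on the hybridization control scale. ACTC1, the cardiac actin that fetal skeletal muscle also makes, had signals of 30753, 29768 and 41248 at day 0 and 15307, 11412 and 16540.0 at day 21 and fell by 1.24 ± 0.22 (limma adjusted p = 0.00423). Its mean signal was 33550.0 at day 0, 28530.0 at day 7, 11480.0 at day 14 and 14240.0 at day 21. MYL4, the light chain of atrial and embryonic muscle, rose by 1.17 ± 0.21 (adjusted p = 0.00494) from 239.7, 175 and 230.3 at day 0 and 576, 389 and 496 at day 21. CA3, the carbonic anhydrase of slow fibres, rose by 2.25 ± 0.30 (adjusted p = 0.00104) from 6117, 3648 and 11826 at day 0 and 27796, 31314 and 32354 at day 21, so that the lowest day 21 array was more than 2-fold above the highest at day 0. In the sarcomere and Z-disc list 4 of 36 rose (11.1%) and 1 fell (2.78%), against 7.36% and 7.1% of all genes. That list had 1 rise without day 21 replicate 3, 2 without day 0 replicate 1 or 2 or day 21 replicate 2 and 8 without day 0 replicate 3. TMOD4, which caps the thin filament in skeletal muscle, rose by 1.49 ± 0.30 from 3404, 7014 and 10334 at day 0 and 15621, 16153 and 21662 at day 21. In excitation contraction coupling and ion channels 4 of 14 rose and 1 fell, with a median of 0.10. That median was -0.28 on the hybridization control scale, -0.01 with median centring, -0.02 with array weights, -0.16 without day 0 replicate 1 and 0.42 without day 0 replicate 3. RYR1, the calcium release channel, rose by 0.90 ± 0.19 from 6951, 7171 and 8744 at day 0 and 12745, 13049 and 17176 at day 21, and the calcium pumps ATP2A1 and ATP2A2 were at 0.29 ± 0.24 (adjusted p = 0.469) and 0.78 ± 0.23 (adjusted p = 0.0402). Rises among the contractile isoforms numbered 6 without day 0 replicate 2 or day 21 replicate 3, and 7 without day 0 replicate 1 or day 21 replicate 2. ATP2A2 passed, but not in any fit without 1 array except that without day 0 replicate 3.

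The dystrophin complex links the fibre's membrane to its matrix. SNTB1, a syntrophin of that complex, had signals of 193, 417 and 1051 at day 0 and 3172, 2045 and 2106 at day 21 and rose by 2.44 ± 0.47 (limma adjusted p = 0.00648), with both probe sets called. SGCD, the delta sarcoglycan, rose by 1.67 ± 0.38 from 552, 1607 and 2086 at day 0 and 4065, 3627 and 4053 at day 21. Its call was lost without day 21 replicate 1 (limma adjusted p = 0.0503) or 3 (0.0518). CAV1 and CAV2, the caveolins of endothelial and other cells, rose by 0.53 ± 0.13 and 0.91 ± 0.21, and ITGB3, an integrin subunit, fell by 1.42 ± 0.40, which made 4 rises and 1 fall among 16 genes of integrins and costameres. The list had 1 rise without day 21 replicate 1 or 3. CAV1 lost its call without day 21 replicate 1 (limma adjusted p = 0.0601) or 3 (0.102), CAV2 without day 0 replicate 2 (0.0564), day 21 replicate 1 (0.0658) or day 21 replicate 3 (0.0528). ITGB3 kept its call without day 0 replicate 1 or day 21 replicate 3 and lost it without any other array (highest 0.116, without day 21 replicate 1). Of 34 collagens and matrix proteins 2 rose (5.88%) and 0 fell (6 lower at an unadjusted p under 0.05 in limma), against 7.36% and 7.1% of all genes. Without day 21 replicate 2, 6 of them fell. COL15A1, a collagen of basement membranes around muscle fibres and vessels, rose by 1.44 ± 0.27 (adjusted p = 0.0061) from 1526, 1937 and 3889 at day 0 and 7244, 5239 and 6109.7 at day 21. BMP1, which trims procollagens, fell by 1.18 ± 0.23 from 992, 1282 and 682 at day 0 and 435, 443 and 389.7 at day 21. DPT, dermatopontin, a matrix protein made by fibroblasts, fell by 1.66 ± 0.39 from 764, 936 and 689 at day 0 and 259, 389 and 156 at day 21, a call lost without day 0 replicate 2 (0.0557) or day 21 replicate 3 (0.0724). The 8 fibroblast markers with a probe set summed to 19236 to 41390 at day 0 and 17005 to 45527 at day 21, and DPT was the 1 of them that was called.

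Membrane traffic gave 9 falls (12.2%) and 1 rise (1.35%) among 74 genes, against 7.1% and 7.36% of all genes. CLTC, the clathrin heavy chain, had signals of 3232, 2781 and 3118 at day 0 and 1110.2, 1103 and 951 at day 21 and fell by 1.53 ± 0.17 (limma adjusted p = 0.000584). AP2B1, a subunit of the adaptor that links clathrin to cargo at the plasma membrane, rose by 2.37 ± 0.48 (adjusted p = 0.0079) from 876, 1569 and 901 at day 0 and 5483, 3783 and 8259.6 at day 21. In each of these genes 1 of 2 probe sets was called. Other subunits of the same adaptor, AP2M1 at -0.49 ± 0.18 (adjusted p = 0.0967) and AP2S1 at -0.22 ± 0.21 (adjusted p = 0.544), did not pass. The mean signal of AP2B1 was 1074 at day 0, 2814 at day 7, 2235 at day 14 and 5554 at day 21. VAMP2, a fusion protein of vesicles, fell by 1.10 ± 0.18, and MYO5B, a motor of recycling vesicles, fell by 1.87 ± 0.31 (adjusted p = 0.00305) from 767, 644 and 426 at day 0 and 172, 189 and 133 at day 21. Without day 21 replicate 1 the list had 4 falls.

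Growth factors that act between cells were among the rises of rank 13 to 30. ANGPT1, a ligand that steadies blood vessels, had signals of 48.8, 66.3 and 97.8 at day 0 and 447, 336 and 399 at day 21 and rose by 2.52 ± 0.30 (limma adjusted p = 0.000819). Its day 0 mean of 68.1 and 2 of its day 0 arrays lay below 90.3, the limit of the filter on low values. ANGPT1 thus passed that filter only through the later ages, which favours a rise. After 29.7 was added to each signal as an offset the rise was 2.09. TEK, its receptor on endothelial cells, was at 0.78 ± 0.24, from 377, 356 and 409.9 at day 0 and 689, 517 and 777 at day 21, with separate ages, and did not pass (adjusted p = 0.0525). EGF, the epidermal growth factor, rose by 2.46 ± 0.34 (adjusted p = 0.00136) from 498, 732 and 1672 at day 0 and 4577, 4498 and 4882 at day 21. The day 21 arrays of EGF lay close together, and day 0 replicate 3 was more than 2-fold above the other day 0 arrays. Of 14 endothelial markers 11 had a probe set and were tested, 3 rose and 1 fell, and their summed signal was 5934 to 6796 at day 0 and 7071 to 10563 at day 21. The part of vessel cells in these rises was not tested. RGS5, a pericyte marker, rose by 1.56 ± 0.19 from 1531, 2102 and 1918 at day 0 and 5114, 5738 and 5381 at day 21. Of 7 smooth muscle and pericyte markers tested 2 rose and 0 fell (2 lower at an unadjusted p under 0.05 in limma). The second was PDGFRB (0.53), a call lost in every fit without 1 array except that without day 0 replicate 3. The summed signal of these markers was 34978 to 40691 at day 0 and 35423 to 40754 at day 21. DES made up the largest part of that sum, with 18781 to 26528 at day 0 and 16238 to 19654 at day 21. Among 22 genes of IGF, insulin and mTOR signalling 4 rose and 1 fell, with 1 rise without day 0 replicate 2 or day 21 replicate 1 and 2 without day 21 replicate 2 or 3. They included GHR, the growth hormone receptor (0.93 ± 0.24, adjusted p = 0.0268), and GRB10, an adaptor that damps the insulin receptor (1.01 ± 0.27, adjusted p = 0.0285). Both lost their calls without day 0 replicate 2 (limma adjusted p = 0.0855 and 0.0555), day 21 replicate 1 (0.0649 and 0.108) or day 21 replicate 3 (0.0832 and 0.0798), GHR also without day 21 replicate 2 (0.0658) and GRB10 without day 0 replicate 3 (0.0693). Of 19 genes for TGF beta, BMP and WNT signalling 0 passed in limma (2 were higher and 2 lower at an unadjusted p under 0.05).

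Genes induced by interferon and of MHC class I rose in 15 of 38 cases and fell in 0 (also 0 lower at an unadjusted p under 0.05 in limma), with a median of 1.29, the highest of the 41 functional lists, or 0.91 on the hybridization control scale. IFIT1, which binds foreign RNA caps, had signals of 116, 75.6 and 158 at day 0 and 739, 645 and 682 at day 21 and rose by 2.63 ± 0.63 (limma adjusted p = 0.0181). OAS1, which senses double-stranded RNA, rose by 2.40 ± 0.58 (adjusted p = 0.0192) from 103, 208 and 315 at day 0 and 923, 1292 and 825 at day 21. The mean signal of IFIT1 was 112 at day 0, 543 at day 7, 1777 at day 14 and 688 at day 21, and day 14 was thus the highest of the 4 ages. IFIT1 lost its call without day 0 replicate 2 (limma adjusted p = 0.0642), day 21 replicate 1 (0.0596) or day 21 replicate 3 (0.0560), and OAS1 without day 0 replicate 1 (0.0659), day 21 replicate 1 (0.0543) or day 21 replicate 2 (0.0575). The list's rises numbered 5 without day 21 replicate 1, 7 without day 0 replicate 1 or day 21 replicate 3, and 9 without day 0 replicate 2 or day 21 replicate 2. SLA-DRB1, an MHC class II chain of antigen-presenting cells whose probe set may read its close relatives, rose by 2.21 ± 0.21 (adjusted p = 0.000227) from 317, 385 and 435 at day 0 and 1938, 1407 and 1936 at day 21.

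Chemokines, cytokines and their receptors gave 9 rises and 1 fall among 29, with a median of 0.30 that turned to -0.08 on the hybridization control scale. CCL4, a chemokine of immune cells, had signals of 141, 133 and 125 at day 0 and 443, 323 and 345 at day 21 and rose by 1.46 ± 0.23 (limma adjusted p = 0.00258). CXCR4, the receptor of the homing chemokine CXCL12, rose by 1.35 ± 0.26 (adjusted p = 0.00682) from 285, 339 and 279.5 at day 0 and 909, 568 and 868 at day 21. SLPI, an inhibitor of leukocyte proteases, stood at 538, 468 and 187 at day 0 and 3258, 1509 and 2631 at day 21. The list had 5 rises without day 21 replicate 1 or 3. Of 12 T cell markers 9 had a probe set and 1, CCL5, was tested and rose. Its day 0 signals of 27.2, 16.5 and 34.7 lay below the limit of the filter on low values. CCL5 thus passed that filter only through the later ages, which favours a rise. Summed signals of the 9 were 135.5 to 295.9 at day 0 and 411.7 to 774 at day 21, and CD3D, CD3E, CD3G, CD4, CD8A, CD8B, CD2 and LCK were too dim to be tested. Of 14 macrophage markers 9 had a probe set, with summed signals of 2198 to 3239.8 at day 0 and 2435 to 4623 at day 21. Of the 8 tested, 5 were higher and 3 lower at day 21 (1 and 2 at an unadjusted p under 0.05 in limma). LAPTM5 rose by 1.55, while CD163 at -0.93 and MRC1 at -1.01 were lower and did not pass. The part of these cells in the immune genes was not tested.

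Cell cycle genes gave 12 rises and 1 fall among 40, with a median of 0.79, or 0.41 on the hybridization control scale. STMN1, which binds free tubulin, had signals of 1327, 926 and 2185 at day 0 and 4534, 3104 and 4392 at day 21 and rose by 1.51 ± 0.28 (limma adjusted p = 0.00538). CKS2, a partner of cyclin-dependent kinases, rose by 1.27 ± 0.25 (adjusted p = 0.00713) from 296, 174 and 274 at day 0 and 668, 539 and 544 at day 21. The mean signal of STMN1 was 1390.0 at day 0, 6138 at day 7, 2966 at day 14 and 3954 at day 21, and that of CKS2 was 241 at day 0, 994 at day 7, 549 at day 14 and 581 at day 21. In both genes day 7 had the highest mean of the 4 ages, which is a description with no test. The list had 4 rises without day 21 replicate 1 and 7 without day 21 replicate 3.

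Genes of the hypoxia response rose in 6 of 24 cases and fell in 0 (1 lower at an unadjusted p under 0.05 in limma), with a median of 0.41, or 0.03 on the hybridization control scale. ANGPTL4, an inhibitor of lipoprotein lipase that glucocorticoids and fasting also induce, had signals of 222, 561 and 240.2 at day 0 and 1249, 666 and 1165 at day 21 and rose by 1.67 ± 0.34 (limma adjusted p = 0.00829), with both probe sets called. Of 19 glucocorticoid response genes ANGPTL4 and NR3C1, the receptor itself (1.04 ± 0.25, limma adjusted p = 0.0195), rose, and the median was -0.43. The share of rises in that list was 10.5%, against 7.36% of all genes. FKBP5, a chaperone that the receptor induces, was at -1.13 ± 0.47 and did not pass (adjusted p = 0.137). NR3C1 lost its call without day 21 replicate 1 (limma adjusted p = 0.0665) or 3 (0.0554). In haem and iron 4 of 18 genes rose and 1 fell, with a median of 0.20 that turned to -0.18 on the hybridization control scale, and 1 or 2 rose without day 0 replicate 1 or any 1 day 21 array. ALAS2, the first enzyme of haem synthesis in red cell precursors, rose by 1.40 ± 0.27 (adjusted p = 0.00656) from 375, 228 and 477 at day 0 and 1136, 682 and 974 at day 21, while HBB, a globin chain, fell by 0.84 ± 0.24 (adjusted p = 0.0349) from 2071, 1175 and 1036 at day 0 and 698, 829 and 755 at day 21. HBB lost its call without day 0 replicate 1 or any 1 day 21 array (highest adjusted p = 0.111, without day 21 replicate 1). Red cell markers with a probe set (3 of 8) summed to 1445 to 2576 at day 0 and 1603 to 2505 at day 21.

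Among fat storage genes 4.55% rose and 4.55% fell, and among cholesterol genes 0% rose and 10.5% fell, against 7.36% and 7.1% of all genes. PLIN2, which coats lipid droplets, fell by 1.03 ± 0.26 and MGLL, which splits monoglycerides, rose by 0.96 ± 0.23, the 2 calls among 22 fat storage genes. NSDHL, an enzyme of cholesterol synthesis, fell by 1.32 ± 0.29 (limma adjusted p = 0.0125) from 309.6, 310.0 and 621 at day 0 and 165, 145 and 161 at day 21. Among 19 genes of cholesterol synthesis and uptake NSDHL and SQLE fell and the median was -0.51. That list had 4 falls without day 0 replicate 1 or replicate 2 and 1 without any 1 day 21 array, and its median ran from -0.81 without day 0 replicate 1 to -0.29 without day 0 replicate 3. PLIN2 lost its call without day 0 replicate 1 (limma adjusted p = 0.0688), day 21 replicate 2 (0.0534) or day 21 replicate 3 (0.0886), and MGLL without day 0 replicate 1 (0.0581), day 21 replicate 1 (0.0690) or day 21 replicate 3 (0.0776). SQLE kept its call without day 0 replicate 1 or 2 and lost it without any other array (highest adjusted p = 0.170, without day 21 replicate 3). Complement and coagulation gave 0 calls among 24 genes in limma (3 higher and 1 lower at an unadjusted p under 0.05), and 2 rose without day 0 replicate 1.

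The other genes of rank 13 to 30 fell outside the lists. Among the rises, LXN, an inhibitor of carboxypeptidases, was at 232, 617 and 472 at day 0 and 2994, 1072 and 2307 at day 21 and rose by 2.26 ± 0.41 (limma adjusted p = 0.00468), with both probe sets called. TMEM132A, a membrane protein, rose by 2.38 ± 0.35, and its day 0 signals of 24.0, 34.7 and 35.6 lay below the tested limit of 90.3. It thus passed the filter only through the later ages, which favours a rise. CEACAM16, of the carcinoembryonic antigen family, rose by 2.21 ± 0.35 from 109.5, 187 and 259.9 at day 0 and 1040.3, 482 and 1049.9 at day 21. RRM2B, a subunit of ribonucleotide reductase, rose by 2.53 ± 0.76 and LRRN3, a leucine-rich neuronal protein, by 2.38 ± 0.69, both from dim day 0 levels. RRM2B had 7.4 in day 0 replicate 2 and lost its call without day 0 replicate 2 (change 1.35, adjusted p = 0.0810) or any 1 day 21 array (highest 0.141). LRRN3 lost its call in every fit without 1 array except that without day 21 replicate 2 (highest 0.147). Among the falls, ZNF385D, a zinc finger protein, was at 1138, 618 and 1029 at day 0 and 219, 352 and 277 at day 21 and fell by 1.70 ± 0.36. The uncharacterised LOC100153598 was the brightest of the falls in these ranks, at 16738, 26359.8 and 16499.5 at day 0 and 3644, 9427 and 5987 at day 21, and fell by 1.72 ± 0.33 (adjusted p = 0.00658). GPATCH3, a second G-patch protein, fell by 1.60 ± 0.34, to a day 21 mean of 61.8, and passed the filter only through the earlier ages. FNTB, the beta subunit of the enzyme that attaches farnesyl groups, fell by 1.70 ± 0.40 and CPM, a carboxypeptidase of cell membranes, by 1.73 ± 0.45. FNTB lost its call when any 1 of replicates 1 and 2 of day 0 or 2 and 3 of day 21 was left out (highest limma adjusted p = 0.0623), and CPM without day 0 replicate 1 or day 21 replicate 1 or 3 (highest 0.106).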

How the data were processed

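Per the submitters' processing notes the authors made the signals with MAS5, whose version is not given in the sources used here. They were deposited as 1 linear intensity per probe set and array. The 2% trimmed means were equal (500.1, spread 0.00514%), so log2 of each signal was used without normalizing again. From 24123 probe sets, 124 controls and then the lowest 40% by mean log2 signal (limit 90.3) were removed, and 14399 remained. Symbols came from the platform's probe table: 10099 probe sets carried 1 symbol, 198 several and 13826 none. The brightest tested probe set stood for its gene (5296 genes, 1396 with more than 1). Probe sets of BUD23 were called in both directions.

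limma 3.58.1 (R 4.3.3) was fitted with a mean per age over all 12 arrays and eBayes with a variance trend, and the contrast day 21 minus day 0 was called at a Benjamini-Hochberg adjusted p of 0.05. The p-values set each change against the spread between samples of the same age, estimated over all 12 arrays. Genes named are those of rank 13 to 30 by change among called genes with separate groups, the called genes with the lowest p in each list (at most 4), partners of one enzyme or complex, and markers. UTP11, POLR1D, IMPDH2, GPD2, ADSL, ACTC1, MYL4, ITGB3 and FKBP5 lie outside this rule and were named after their values were seen. The 41 lists were described by counts and medians, without a list test, and 13 marker lists beside them. The members and lists were chosen with earlier results of these data known. Alternatives were no filter, a 60% filter, quantile normalization, median centring, hybridization control scaling (27 probe sets), an offset of 29.7 (the 20th percentile), no trend, array weights, a replicate block, the 6 arrays alone, a covariate for the poly-A spike ratio (12 pairs of 3' and 5' probe sets), averaging the probe sets of a gene, and leaving out each array. The fit was tested on simulated data of 14399 probe sets (35 of 100 recovered at 2-fold, 90 of 100 at 4-fold, 4 unchanged ones called). Figures were drawn with matplotlib 3.10.9.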

Additional observations from a re-analysis of the deposited data

How the results depend on the processing

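The limma count of 1657 probe sets (952 higher, 705 lower) ranged over the fits without 1 array from 789 to 2023, with 467 to 1162 higher and 322 to 861 lower. The lowest counts came without day 21 replicate 3 (789) and day 21 replicate 1 (879), and the highest without day 0 replicate 3. With only the 6 arrays of both ages it was 590 (363 higher, 227 lower), a fit with fewer samples behind its spread. A covariate for the poly-A spike ratio made it 948 (572 and 376). Scaling on the hybridization controls gave 2883 (397 higher, 2486 lower) and median centring 1771 (739 higher, 1032 lower). Array weights gave 469 lower and 1195 in all. The cause was not tested where none is named. No filter, a 60% filter, quantile normalization, the offset and no variance trend gave counts between 1389 and 1699. The labels do not say whether equal replicate numbers pair the samples. Correlations of deviations between equal numbers were 0.04, -0.10 and -0.07, and day 0 replicate 2 correlated best with day 21 replicate 3. With 3 arrays per age these values show no pairing but cannot exclude one. With the replicate number as a block the count was 1447 (847 higher, 600 lower). Of 327 called genes that are named or listed, 118 kept their call in every alternative run, and 184 of the 327 without day 21 replicate 3. When probe sets of a gene were averaged, 2 of the 766 called genes changed sign, and in the other alternatives 0 did. Signals near background limit the size of change in dim genes, and 3 arrays per age left most 2-fold changes uncalled in simulated data.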
